A study of Mus musculus with 46 samples.

Results

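Mouse genes with a symbol from Zfp400 to Zfp999 encode numbered zinc finger proteins, and they were followed in the liver through injury by carbon tetrachloride (CCl4) and recovery from it. A gene was taken where the array annotation paired its symbol with a probe set (a group of short probes that reads a transcript) naming no other gene, and where several such probe sets existed the brightest on average was used. Of 191 such genes, 116 exceeded the median of all values (5.55823 on the log2 scale) on at least 5 arrays and are described here, out of 13239 genes tested. The other 75 did not pass and have no result below. The genes were chosen by measured values (mean signal and the number of arrays above the median), so a gene low in control livers could pass only through livers in which it was high, and counts over the 116 genes that passed are given as a description. At the limit, Zfp980, Zfp469 and Zfp654 passed with 6, 7 and 8 arrays, and Zfp516 with 3 arrays and Zfp472, Zfp932 and Zfp938 with 2 did not pass. Those 3 passing genes would have failed without the arrays of 1 group.

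Male C57BL/6N mice 8 to 10 weeks old received 1 intraperitoneal injection of CCl4, a solvent whose metabolism in hepatocytes releases radicals, at 1.6 g/kg in olive oil. Livers taken after 2 h, 8 h and 1 d and then after 2, 4, 6 and 8 d gave 5 arrays per time, those after 16 d gave 6, and 5 control arrays came from untreated mice without oil or injection. The 46 Affymetrix arrays were made from whole liver RNA, and nothing in the labels ties an array to its own mouse, so a p-value here covers the scatter among arrays, part or all of which may be technical. Each comparison with control includes the injection and its oil, the same 5 control arrays serve all 8 of these comparisons, and the hour of collection is not stated in the sources used.

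Many numbered zinc finger proteins bind DNA through arrays of C2H2 fingers, in which cysteines and histidines hold a zinc ion. A large share carry a KRAB domain, which recruits the corepressor Trim28 and, with it, the histone methyltransferase Setdb1 and heterochromatin proteins, to silence retroelements and some genes. Others act elsewhere, for example in ribosome assembly or splicing, and transcripts of many transcription factors turn over quickly, which is why a shared early fall was looked for.

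Across the array set, arrays of a group correlated over genes with r between 0.947 and 0.993, with both ends among the 1 d arrays. Arrays 1 and 2 at 1 d stood apart, with summed signals of 7 of 8 monocyte-derived macrophage markers of 2810 and 2227, against 7073 to 7855 on the other 3 arrays of that time. The markers of hepatocytes were all 8 above the filter and summed to 79036 to 99681 at 1 d, against 96925 to 105943 in control livers. Array 1 gave the lower end of that 1 d range and array 2 the upper end, so these arrays were not alike in every measure. The Gapdh 3 prime probe signal minus its 5 prime one, a measure of RNA integrity, was 0.136 ± 0.134 at 2 h and 0.347 ± 0.0646 in control livers (SD, n = 5 each), a difference of -0.211. Its differences from 2 h to 4 d ran from -0.211 to -0.148, with p between 0.00794 and 0.0238 and adjusted p between 0.0635 and 0.0762 in two-sided exact permutation tests. The same measure on actin differed by -0.147 to 0.0532 from 2 h to 4 d. In the same tests its p ran from 0.143 to 0.524 and its adjusted p from 0.254 to 0.524. At 8 d actin differed by 0.158 (p 0.0317, adjusted p 0.0847). The cause of the Gapdh difference was not tested. Fewer cells of a type and less RNA per cell cannot be told apart in whole tissue, and the number of arrays limits the precision. Errors after a log2 fold change are standard errors from the fit, and a gene is called where its adjusted p in limma with Benjamini-Hochberg adjustment over 13239 genes is below 0.05.

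The zinc finger genes did not fall together at 2 h. At that time 16 of the 116 genes were called lower than control (13.8%, against 19.9% of all genes tested) and 14 were called higher (12.1%, against 6.41%). Their median log2 fold change was 0.04, against -0.03 over all genes, and 39.7% of them were below 0 against 55.6% of all genes. The middle of the list therefore sat close to control while both tails carried changed genes. The median of the 116 genes was between 0.01 and 0.04 under each alternative processing. The position of the lower calls against all genes depended on the scaling of the arrays. With quantile normalization 13.8% of the zinc finger genes and 12.8% of all genes were called lower, and with cyclic loess 12.1% and 9.72%. The number of rises moved with the scaling as well. The shares of all genes called higher, or below 0, under these scalings are not given. The excess of rises over all genes is therefore a description at the deposited scaling. Fewer rises were left without probe sets that can share near-identical copies, with the count in the last section. Falls of at least 1.5-fold numbered 3 and such rises 4, against 3.09% and 2.27% of all genes. All 6 Kupffer cell markers were measured, and their summed signal was 1436 to 1869 at 2 h and 1591 to 1960 at 8 h, against 2118 to 2508 in control livers. The 7 of 8 monocyte-derived macrophage markers measured, without Ly6c2, summed to 685 to 778 at 2 h, against 864 to 931 in control livers. The part of these cells in the 2 h and 8 h values of the zinc finger genes was not tested.

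**Figure D1:**
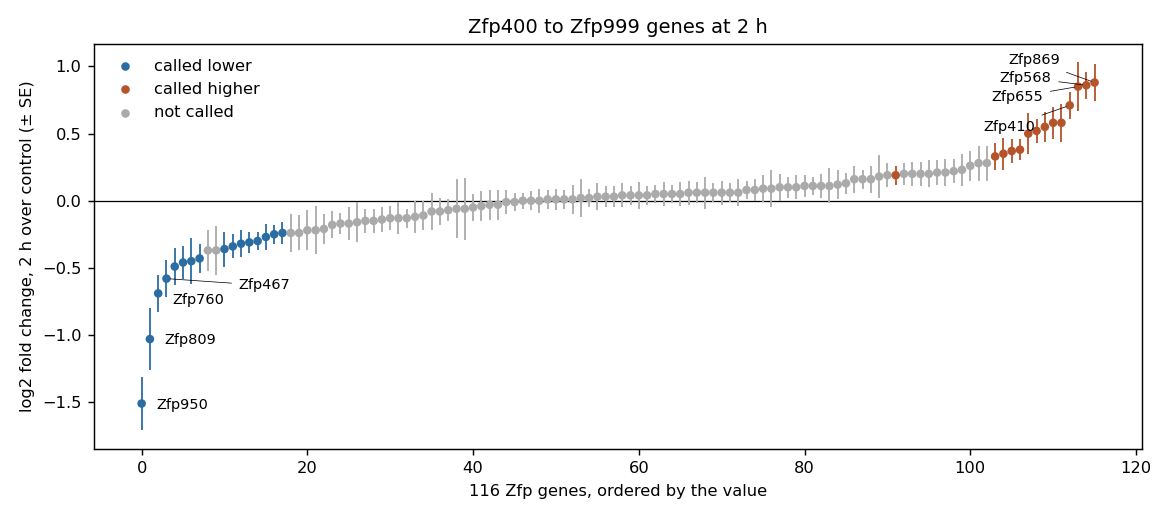
Log2 fold change at 2 h over control (vertical axis, lines are ± standard error) of the 116 Zfp genes ordered by that value (horizontal axis), with called genes in colour. Most points lie close to 0, with Zfp950 at -1.51 and Zfp809 at -1.03 at the low end and Zfp869 at 0.88 at the high end.

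The lowest value at 2 h was that of Zfp950. Its 5 arrays at 2 h read 5.56, 6.05, 5.28, 4.87 and 5.80 on the log2 scale, against 7.23, 7.09, 6.94, 6.82 and 7.03 in control livers, and the groups did not overlap. The difference was -1.51 ± 0.20, 2.85-fold lower, with an adjusted p of 2.97e-07. At 8 h the gene was still lower by -1.01 ± 0.20 (adjusted p 4.82e-05), and at 1 d by -0.62 ± 0.20 (adjusted p 0.00815), a call that ended with the Gapdh value as a covariate (adjusted p 0.0607) and that was -0.94 without arrays 1 and 2. From 1 d to 2 d it rose by 0.86 (adjusted p 0.000628). The other Zfp950 probe sets, which were below the median on each array, differed by -0.21 and -0.30 at 2 h, so the size of the fall rests on the brightest probe set.

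Zfp809, a KRAB protein that silences retroviral DNA through Trim28 in mouse stem cells, followed a similar course. It read 6.11, 6.49, 5.83, 6.24 and 6.80 at 2 h and 6.00, 6.54, 6.35, 5.78 and 6.02 at 8 h, against 7.10, 7.58, 7.39, 7.33 and 7.22 in control livers. No array of either time reached the control range. The differences were -1.03 ± 0.23 at 2 h (adjusted p 0.000685) and -1.18 ± 0.23 at 8 h (2.27-fold lower, adjusted p 3.03e-05). Between 8 h and 1 d the gene rose by 0.85 (adjusted p 0.00309).

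Zfp760 was lower at 2 h alone among the times called, with 5.34, 5.40, 5.07, 5.52 and 5.53 at 2 h against 6.49, 5.84, 5.99, 6.05 and 5.94 in control livers. All 2 h arrays lay below the control arrays (-0.69 ± 0.14, adjusted p 0.000261), and at 8 h the difference was -0.07. Zfp467, a factor that favours adipocyte over osteoblast formation in mouse marrow, was lower at 2 h, 8 h and 1 d, by -0.58, -0.59 and -0.54 (± 0.14 each, adjusted p 0.00216, 0.000715 and 0.00174). Its other probe sets differed by -0.60 and -1.32 at 2 h and by -0.77 and -1.82 at 8 h. Zfp931, read by a probe set that can share near-identical copies and is therefore uncertain, was lower at 2 h (-0.49 ± 0.14, adjusted p 0.0085) and higher at 8 h (0.36 ± 0.14, adjusted p 0.0382). That second call ended with the Gapdh covariate and on leaving out control array 1, 4 or 5 or 8 h array 2, 3 or 5, with adjusted p up to 0.146.

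Among the smaller falls at 2 h, Zfp560 was at -0.34 ± 0.09 (adjusted p 0.00484). Zfp810 at -0.45 ± 0.17 (adjusted p 0.0458) and Zfp768 at -0.36 ± 0.13 (adjusted p 0.0358) rested on the full set of arrays. The Zfp810 call ended on leaving out any control array or 2 h array 1, 3 or 4, and with the arrays shifted to the same median, with no filter, with the mean of all probe sets or with the Gapdh covariate (adjusted p up to 0.109). The Zfp768 call ended on leaving out control array 1, 3, 4 or 5 or 2 h array 1, 4 or 5, and with the Gapdh covariate (adjusted p up to 0.089).

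The genes that rose at 2 h were led by Zfp869. It read 6.93, 6.83, 6.45, 6.16 and 6.04 at 2 h, against 5.40, 5.63, 5.44, 5.63 and 5.92 in control livers, without overlap. The rise was 0.88 ± 0.14 (1.84-fold, adjusted p 7.25e-06), and at 8 h the difference was 0.22 ± 0.14 (adjusted p 0.201).

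Zfp568, a KRAB repressor known in the mouse for silencing a placental Igf2 transcript, rose for longer. Its arrays read 7.54, 8.21, 8.07, 7.75 and 7.68 at 2 h and 7.60, 7.85, 7.85, 7.66 and 7.66 at 8 h, against 6.94, 6.91, 6.97, 7.13 and 7.02 in control livers. Each array at 2 h and 8 h lay above each control array. The differences were 0.86 ± 0.10 at 2 h (adjusted p 6.64e-08), 0.73 ± 0.10 at 8 h (adjusted p 1.92e-07) and 0.32 ± 0.10 at 1 d (adjusted p 0.0103). From 8 h to 1 d the gene fell by 0.41 (adjusted p 0.00199).

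Zfp655 read 8.39, 8.90, 9.72, 8.46 and 8.30 at 2 h and 8.63, 8.71, 9.11, 9.05 and 8.98 at 8 h, against 7.55, 8.22, 7.88, 7.75 and 8.10 in control livers. It was higher by 0.85 ± 0.18 at 2 h (adjusted p 0.000592) and by 1.00 ± 0.18 at 8 h (adjusted p 1.99e-05), with no overlap at either time. Its other probe sets differed by 0.20 and 0.83 at 2 h and by 0.97 and 0.80 at 8 h. Zfp959 rose at the same times, by 0.58 ± 0.12 at 2 h (adjusted p 0.000393) and 0.54 ± 0.12 at 8 h (adjusted p 0.000271).

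Zfp410, an activator known for its action on the gene of the chromatin remodeller Chd4, read 8.17, 8.30, 8.10, 7.81 and 7.91 at 2 h, against 7.30, 7.27, 7.39, 7.43 and 7.33 in control livers. The groups did not overlap, and the difference was 0.71 ± 0.10 at 2 h (adjusted p 1.2e-06) and 0.60 ± 0.10 at 8 h (adjusted p 3.27e-06). Its probe set may read near-identical copies, and another probe set above the median on all 46 arrays differed by 0.37 at 2 h and 0.39 at 8 h. Chd4 itself differed by 0.12 ± 0.12 at 2 h (adjusted p 0.51), and was higher by 0.38 ± 0.12 at 8 h (adjusted p 0.0123) and by 0.84 ± 0.12 at 1 d (adjusted p 3.43e-07). Zfp410 differed by 0.23 ± 0.10 at 1 d (adjusted p 0.0577) and by -0.18 ± 0.10 at 2 d (adjusted p 0.156). A link between these genes was not tested.

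The upstream sequence of members that moved is shown to place these changes beside their promoters, with matches to 8 searched motifs in capitals. Each run is the last 100 bases before the gene start, 5′ to 3′ on the strand of the gene, from RefSeq on GRCm38.p6. The windows are chr19:61140841-61140940 on the minus strand for Zfp950, chr9:22225603-22225702 on the plus strand for Zfp809, chr8:69716903-69717002 on the minus strand for Zfp869, chr17:22867135-22867234 on the minus strand for Zfp945, chr15:25984266-25984365 on the plus strand for Zfp622 and chr3:98382381-98382480 on the plus strand for Zfp697. The capitals mark a CRE core and a CCAAT box in Zfp950, an ETS core and a CCAAT box in Zfp809 and 2 CCAAT boxes in Zfp869, whose 2 h values are given above. They mark an ETS core and a GC box in Zfp945, a GC box and a paired heat shock motif in Zfp622 and a paired heat shock motif in Zfp697, whose values at 8 h and 1 d follow.
Zfp950: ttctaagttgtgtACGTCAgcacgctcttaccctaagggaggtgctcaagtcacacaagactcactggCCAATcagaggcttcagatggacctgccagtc
Zfp809: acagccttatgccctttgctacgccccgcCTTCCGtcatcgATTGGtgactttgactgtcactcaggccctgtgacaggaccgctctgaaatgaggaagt
Zfp869: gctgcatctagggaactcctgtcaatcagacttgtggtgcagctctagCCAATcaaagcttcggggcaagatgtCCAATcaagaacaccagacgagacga
Zfp945: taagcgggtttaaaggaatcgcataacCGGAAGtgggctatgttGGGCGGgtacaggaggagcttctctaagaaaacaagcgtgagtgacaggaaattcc
Zfp622: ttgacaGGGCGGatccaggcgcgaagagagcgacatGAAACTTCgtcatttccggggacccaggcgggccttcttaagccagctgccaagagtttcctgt
Zfp697: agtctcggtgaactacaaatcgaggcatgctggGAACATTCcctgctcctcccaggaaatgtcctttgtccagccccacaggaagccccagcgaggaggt

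Of the 116 genes, 91 had a RefSeq promoter, and 250 bases before the start were searched on both strands. The paired heat shock motif GAANNTTC was found in 12.1% of these 91 promoters, in 5.2% of the promoters of 10602 genes tested and in 6.8% of 27025 promoters in all. The CRE core TGACGT was found in 14.3%, 9.6% and 6.6% of the same sets, the ETS core CGGAAG in 26.4%, 23.3% and 13.8%, the CCAAT box CCAAT in 41.8%, 35.7% and 34.5%, and the E-box CACGTG in 9.9%, 8.2% and 6.0%. The GC box GGGCGG was at 54.9%, 55.5% and 32.9%, the AP-1 site TGANTCA at 7.7%, 4.8% and 6.9%, and the TATA box TATAAA at 4.4%, 7.6% and 13.0%. Genes that moved at 2 h were found with and without most of these motifs, and the 4 genes with a TATA box were not called then. Of the 11 genes with the paired heat shock motif, 0 were called lower and 2 higher at 2 h, against 14 lower and 7 higher of the 80 without one. At 8 h 0 of these 11 were called lower and 2 higher, against 14 lower and 17 higher of the 80. The median log2 fold changes at 8 h were 0.01 with the motif and 0.03 without it. Of the 13 with a CRE core, 3 were called lower and 2 higher at 2 h, against 11 lower and 7 higher of the 78 without it. A match describes letters in a window and not a bound site.

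More of the zinc finger genes were called higher at 8 h than at 2 h. The share of all genes called higher grew as well, from 6.41% to 17.7%. Of the 116 genes 17 were called lower (14.7%, against 24.2% of all genes) and 26 higher (22.4%, against 17.7%), with a median log2 fold change of 0.03. Falls of at least 1.5-fold numbered 6 (9.22% of all genes) and such rises 7 (8.35%). Of the 71 genes called at any time, 26 had their largest called change at 8 h, 16 had it at 2 h, 15 had it at 1 d and 12 had it at 2 d. The same tally was not made for all genes, so it is a description only. Calls over all genes were most frequent at 1 d (25.1% lower and 25.0% higher).

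Zfp945 changed most of the 116 genes at any time. It read 8.96, 8.97, 9.30, 9.0 and 8.84 at 8 h, against 7.30, 7.30, 7.20, 7.10 and 7.17 in control livers, so the groups were far apart. The difference was 1.80 ± 0.23, 3.49-fold higher (adjusted p 1.92e-08). At 1 d the arrays split, with 7.37 and 7.25 on arrays 1 and 2 and 8.49, 8.54 and 8.51 on arrays 3, 4 and 5, giving 0.82 ± 0.23 (adjusted p 0.00301) and 1.30 without arrays 1 and 2 (adjusted p 6.8e-06). At 2 d the difference was -0.20. Dimmer probe sets of this gene differed by 0.28 and 0.45 at 8 h, so the size of the rise rests on its brightest probe set.

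Zfp697, reported in mouse muscle as a regulator of inflammation and repair, was below the median of all values on every control array. Zfp697 therefore passed the filter only through livers after CCl4, and its rises are given as a description. It read 6.26, 6.17, 6.79, 5.56 and 6.59 at 8 h, against 5.25, 5.32, 5.05, 5.13 and 5.14 in control livers, and the lowest 8 h array was above all control arrays. The difference was 1.10 ± 0.16 (2.14-fold, adjusted p 2.52e-07). At 1 d it was 0.62 ± 0.16 (adjusted p 0.00125), with arrays 1 and 2 again the lowest at 5.40 and 5.24 and the other 3 between 5.95 and 6.36, and 0.94 without those arrays. Arrays 1 and 2, the lowest of the 1 d arrays for Zfp945 and Zfp697, were also the lowest for the summed macrophage and neutrophil markers, and the part of these cells in the 1 d values was not tested. At 8 h, when both genes were highest, the macrophage markers summed to 684 to 769, against 864 to 931 in control livers. The 5 of 6 neutrophil markers measured summed to 434 and 435 on arrays 1 and 2 and to 1243 to 1602 on the others.

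**Figure D2:**
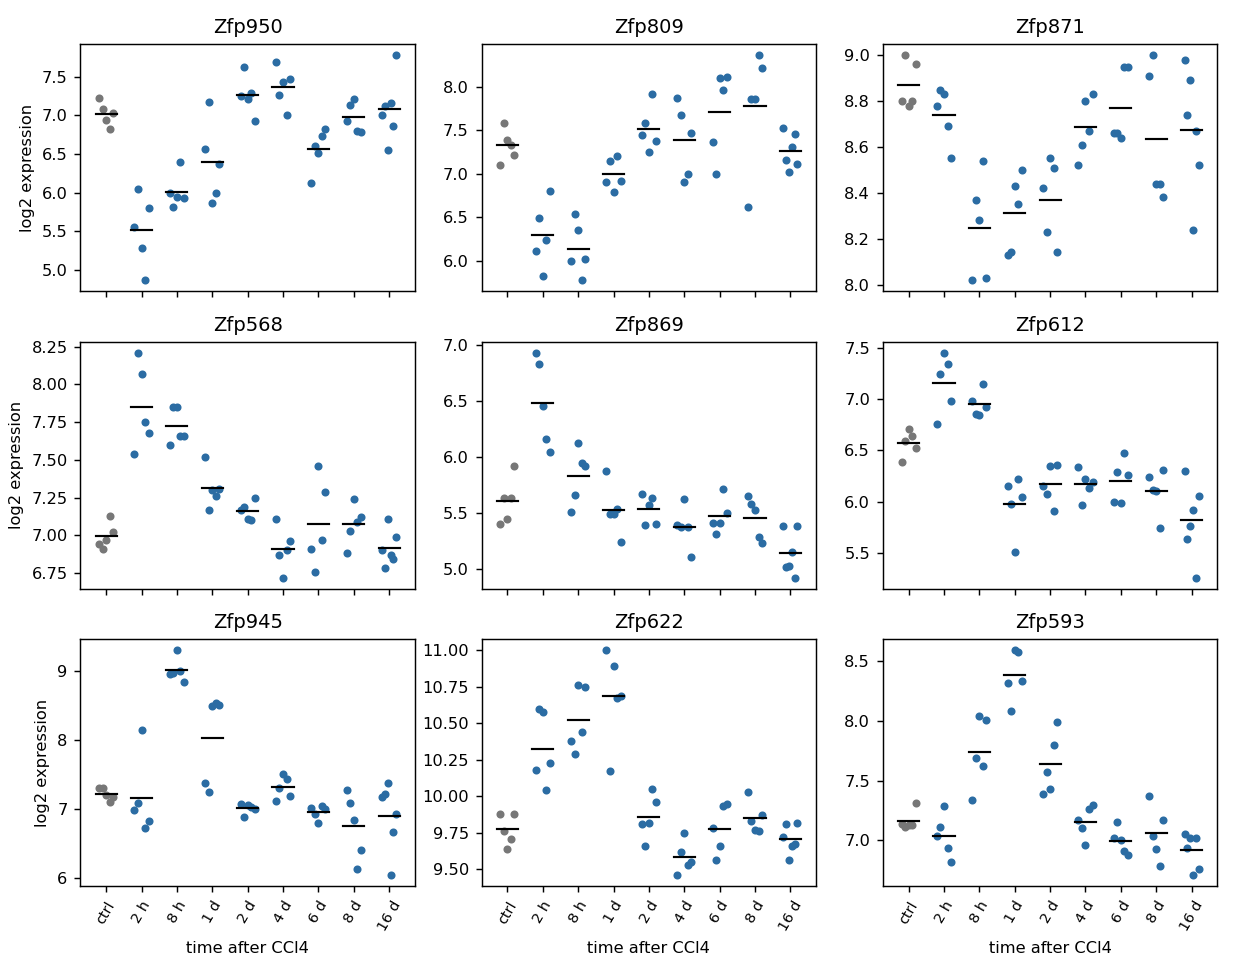
Log2 expression (vertical axis) of 9 Zfp genes on each array in control livers (grey) and at 8 times after CCl4 (blue), with the mean of each group as a bar. Zfp950 and Zfp809 are low at 2 h and 8 h, Zfp945 is high at 8 h and split at 1 d, Zfp622 and Zfp593 are highest at 1 d, and Zfp612 lies above control at 2 h and below it at 1 d and 16 d.

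On the falling side at 8 h, Zfp946 read 5.87, 6.21, 6.06, 6.09 and 5.88, against 6.71, 7.03, 6.79, 6.85 and 6.86 in control livers. The groups were separate, and the fall was -0.83 ± 0.12 (adjusted p 4.78e-07), after -0.46 ± 0.12 at 2 h (adjusted p 0.00452, and 0.0519 with the Gapdh covariate). Zfp707 was lower by -0.67 ± 0.15 at 8 h (adjusted p 0.000179) and by -0.56 ± 0.15 at 1 d (adjusted p 0.00148, and 0.0503 with a difference of -0.38 without arrays 1 and 2 at 1 d). Another Zfp707 probe set differed by -0.94 at 8 h and -0.81 at 1 d.

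Zfp871, among the 3 genes with the highest mean signal, was called lower at 8 h, 1 d and 2 d. It read 8.02, 8.37, 8.28, 8.54 and 8.03 at 8 h, against 8.80, 9.0, 8.78, 8.80 and 8.96 in control livers, with no overlap. It differed by -0.13 ± 0.12 at 2 h (adjusted p 0.468), and was lower by -0.62, -0.56 and -0.50 (± 0.12 each) at 8 h, 1 d and 2 d, with adjusted p of 4.06e-05, 0.000173 and 0.00108. Its other probe sets gave -0.52 and -0.59 at 8 h. Zfp629 was lower by -0.24, -0.38, -0.46 and -0.43 (± 0.08 each) at 2 h, 8 h, 1 d and 2 d, and rose by 0.38 from 2 d to 4 d (adjusted p 0.000403). Its small 2 h call (adjusted p 0.0253) ended with the mean of all probe sets, with the Gapdh covariate and on leaving out control array 2 or 3 or 2 h array 3 or 4 (adjusted p up to 0.233).

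Zfp593 and Zfp622 had the largest differences above control of the 116 genes at 1 d. Zfp622, which helps to mature the large ribosomal subunit, read 11.00, 10.17, 10.89, 10.67 and 10.69 at 1 d, against 9.88, 9.76, 9.64, 9.71 and 9.88 in control livers. Each 1 d array was above each control array. The gene was higher by 0.55 ± 0.11 at 2 h, 0.75 ± 0.11 at 8 h and 0.91 ± 0.11 at 1 d (adjusted p 0.000365, 6.06e-07 and 1.04e-08) and fell by 0.82 from 1 d to 2 d (adjusted p 2.47e-07). Its probe set may read near-identical copies, and 2 other probe sets above the median on all 46 arrays differed by 0.54 and 0.22 at 1 d.

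Zfp593, whose yeast relative Bud20 takes part in export of the large ribosomal subunit, read 8.32, 8.08, 8.59, 8.58 and 8.33 at 1 d, against 7.14, 7.11, 7.13, 7.13 and 7.31 in control livers. It was the largest change of the 116 genes at that time, without overlap, at 1.22 ± 0.12 (2.32-fold, adjusted p 2.88e-11). It was also higher at 8 h (0.58 ± 0.12, adjusted p 9.6e-05) and at 2 d (0.47 ± 0.12, adjusted p 0.00154), and differed by -0.12 at 2 h. Its probe set can likewise share copies, and a dim probe set differed by 0.26 at 1 d. Zfp598, a ubiquitin ligase that marks collided ribosomes, was higher at 1 d by 0.49 ± 0.10 (adjusted p 0.000137), with the 5 arrays at 8.81, 8.36, 9.30, 9.16 and 9.16 against 8.45, 8.52, 8.47, 8.39 and 8.49 in control livers. Array 2 overlapped the control range, and without arrays 1 and 2 the difference was 0.74.

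At 1 d 21 of the 116 genes were called lower (18.1%, against 25.1% of all genes) and 15 higher (12.9%, against 25.0%). Those of at least 1.5-fold numbered 2 (7.42% of all genes) and 4 (11.3%). The split between falls and rises moved with the scaling, to 18 and 20 with cyclic loess and 19 and 19 with arrays shifted to the same median. Without arrays 1 and 2 it was 22 and 17. Zfp553 rose by 0.51 ± 0.08 (adjusted p 1.8e-06), Zfp664 by 0.45 ± 0.11 (adjusted p 0.00089) and Zfp777 by 0.40 ± 0.11 (adjusted p 0.0017). Zfp553 read 5.28 to 5.52 in control livers, below the median of all values on every control array. It therefore passed the filter only through livers after CCl4, and its rise is given as a description. Of the 116 genes 4, with Zfp553 and Zfp697 among them, were below that median on every control array. Zfp664 was carried in part by array 1, at 8.02 against 7.21 to 7.34 on the other 1 d arrays, and without arrays 1 and 2 its rise was 0.29 (adjusted p 0.024).

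Zfp612 turned from above to below control. It read 6.76, 7.24, 7.45, 7.34 and 6.98 at 2 h and 6.15, 5.98, 5.51, 6.22 and 6.04 at 1 d, against 6.39, 6.59, 6.71, 6.64 and 6.52 in control livers, and neither time overlapped control. The differences were 0.58 ± 0.14 at 2 h (adjusted p 0.00193), 0.38 ± 0.14 at 8 h (adjusted p 0.0283), -0.59 ± 0.14 at 1 d (adjusted p 0.000579) and -0.40 ± 0.14 at 2 d (adjusted p 0.0216). The 8 h call ended with the Gapdh covariate and on leaving out control array 1 or 5 or 8 h array 4 (adjusted p up to 0.167), and the 2 d call on leaving out control array 3 or 2 d array 4 (up to 0.0729). The drop of 0.97 from 8 h to 1 d was itself called (adjusted p 7.4e-07). At 16 d the gene was at 5.26 on the lowest, 5.84 on the median and 6.30 on the highest of 6 arrays, all below control, a difference of -0.75 ± 0.14 (adjusted p 0.00453), and it was the only one of the 116 genes called at that time (0.862%, against 1.10% of all genes called lower).

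At 2 d 16 genes were called lower (13.8%, against 18.9% of all genes) and 5 higher (4.31%, against 21.1%). The changes were small, and 0 falls and 0 rises reached 1.5-fold (3.29% and 8.01% of all genes). After Zfp871 and Zfp629 they were led by Zfp612, by Zfp420 (-0.39 ± 0.07, adjusted p 1.16e-05) and by Zfp980 (-0.39 ± 0.12, adjusted p 0.0113, and 0.0578 with the Gapdh covariate), a gene at the limit of the filter. The rises were Zfp593, Zfp652 (0.29 ± 0.10, adjusted p 0.0164), Zfp618 (0.23 ± 0.08, adjusted p 0.0179), Zfp512 (0.22 ± 0.08, adjusted p 0.0252) and Zfp710 (0.20 ± 0.07, adjusted p 0.0171). The call of Zfp652 ended with the mean of all probe sets (adjusted p 0.638). That of Zfp618 ended with it too and on leaving out control array 3 or 2 d array 3 (up to 0.956). The Zfp512 and Zfp710 calls ended under 6 settings each (up to 0.206 and 0.821), among them quantile normalization, the Gapdh covariate and leaving out control array 3 or 2 d array 2, 4 or 5 for Zfp512, and control array 2 or 2 d array 5 for Zfp710. Cycling cell markers (7 of 8 measured, without Ccnb1) summed to 3601 to 7218 at 2 d against 754 to 940 in control livers, and macrophage markers (7 of 8, without Ly6c2) to 1526 to 9679 against 864 to 931. Their part in the changes of the zinc finger genes was not tested.

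**Figure D3:**
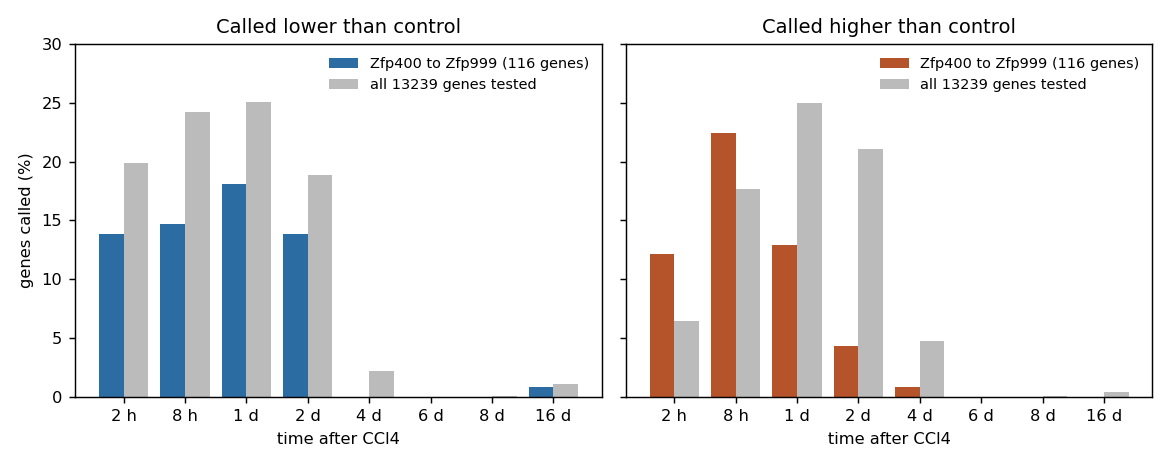
Percent of genes called lower (left) and higher (right) than control at each time after CCl4 (horizontal axis), for the 116 Zfp genes in colour and for all 13239 genes tested in grey. At 2 h the Zfp bars are 13.8% lower and 12.1% higher, at 2 d 13.8% and 4.31%, and from 4 d on no more than 0.862%.

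From 4 d on few calls remained. At 4 d Zfp710 alone was called, at 7.74, 7.80, 7.52, 7.53 and 7.74 against 7.41, 7.24, 7.42, 7.37 and 7.49 in control livers, a rise of 0.28 ± 0.07 (adjusted p 0.00486, and 0.424 with the mean of its probe sets), which makes 0.862% of the 116 genes against 4.74% of all genes called higher and 2.21% called lower. At 6 d and 8 d 0 genes were called in limma, against 0.0227% of all genes called higher at 6 d and 0.068% higher and 0.0755% lower at 8 d. At an unadjusted p below 0.05 there were 5 genes at 6 d and 10 at 8 d (4.31% and 8.62%, against 6.90% and 9.96% of all genes). Leaving out any array, or using any of the other settings tried, gave 0 calls at these times as well.

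Between successive times, 11 genes fell and 14 rose from 2 h to 8 h (9.48% and 12.1%, against 15.4% and 20.4% of all genes). From 8 h to 1 d 19 fell and 10 rose (16.4% and 8.62%, against 10.9% and 20.8%), and from 1 d to 2 d 18 fell and 5 rose (15.5% and 4.31%, against 15.0% and 17.4%). From 2 d to 4 d 2 fell and 12 rose (1.72% and 10.3%, against 17.9% and 13.4%). The genes that rose again from 2 d to 4 d included Zfp629, Zfp420 (0.28, adjusted p 0.00182) and Zfp467 (0.49, adjusted p 0.0077).

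Over the whole course 71 of the 116 genes (61.2%, against 75.0% of all genes) were called at 1 time or more, and 87 (75.0%, against 83.4%) passed the F-test over the 8 times. Of the 71 genes 34 were called lower only, 29 higher only and 8 in both directions at different times, against 11.3% of all genes with calls in both directions. A single time was called for 30 genes, 2 times for 25 and 3 or more for 16, up to 5 for Zfp612. All genes were not counted by a single direction or by the number of times called.

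**Figure D4:**
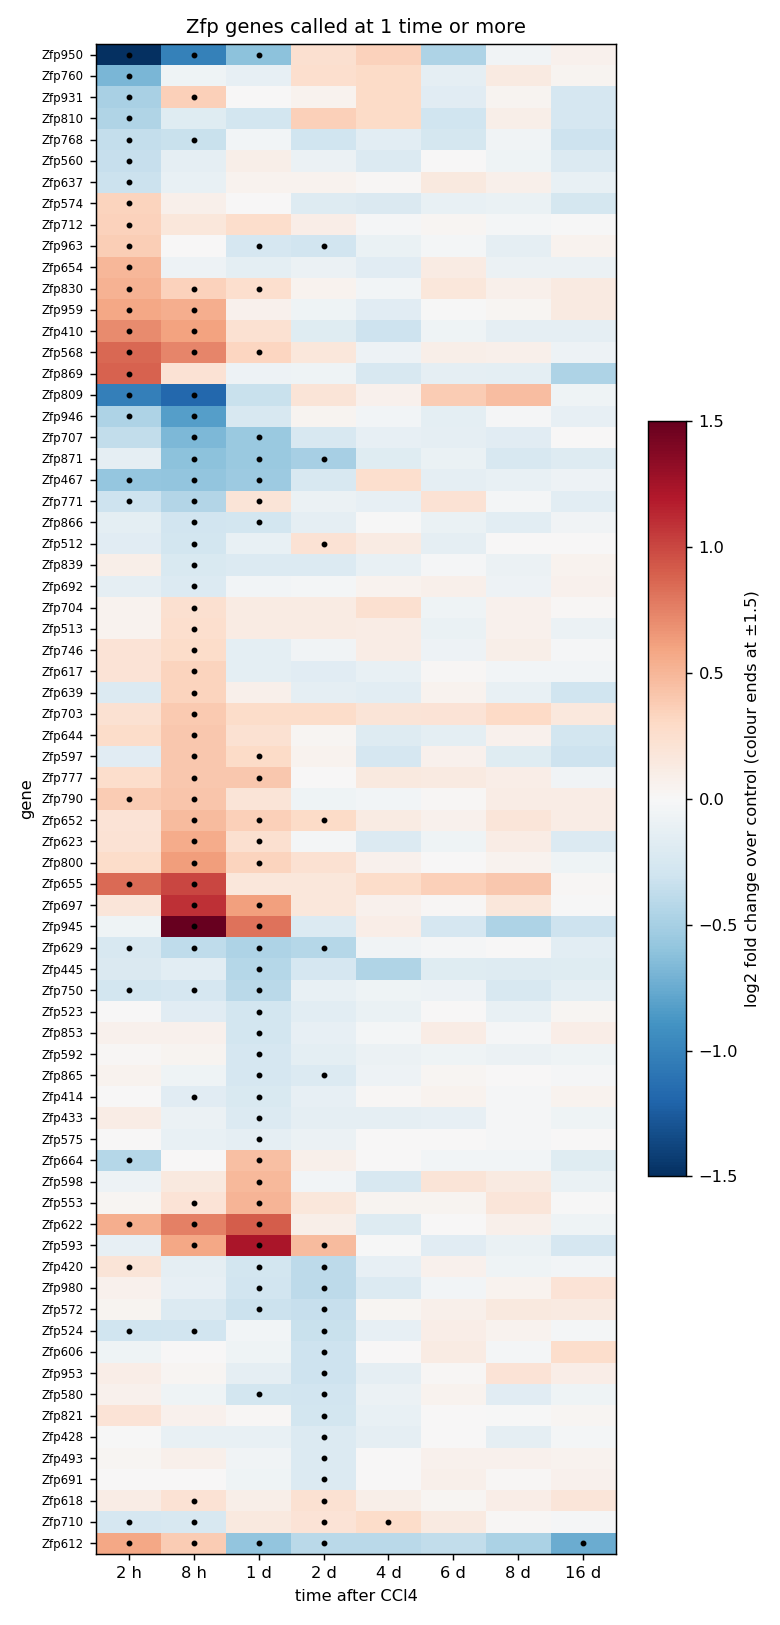
Log2 fold change over control (colour, red higher and blue lower) of the 71 Zfp genes called at 1 time or more (rows) at 8 times after CCl4 (columns), with a dot at each call. Rows are ordered by the time and size of the largest called change, and dots are found almost only in the columns of 2 h to 2 d.

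Of a panel of 28 better studied members, 21 were tested, Zfp423, Zfp503, Zfp516 and Zfp827 did not pass the filter, and Zfp422, Zfp609 and Zfp706 had no probe set of their own. Of these 21 genes 4 fell and 4 rose at 2 h (19.0% each, against 19.9% and 6.41% of all genes) and 5 fell and 8 rose at 8 h (23.8% and 38.1%, against 24.2% and 17.7%). At 1 d 4 fell and 6 rose (19.0% and 28.6%, against 25.1% and 25.0%), and at 2 d 0 fell and 2 rose (9.52% higher, against 21.1%). Zfp830, a protein linked to splicing, rose at 2 h with 7.39, 7.52, 7.45, 7.46 and 7.49 against 6.86, 6.83, 6.89, 7.09 and 7.03 in control livers (0.52 ± 0.09, adjusted p 5.79e-05). At 8 h its rise was 0.35 ± 0.09 (adjusted p 0.002, and 0.137 with the Gapdh covariate). Zfp703, a corepressor of the NET family, was higher at 8 h by 0.39 ± 0.12 (adjusted p 0.00833, and 0.0621 with the mean of its probe sets), and Zfp644, a partner of the histone methyltransferases G9a and GLP, by 0.40 ± 0.13 (adjusted p 0.013, and 0.0592 without 8 h array 3). Zfp644 was read by a probe set that can share copies, and its 8 h arrays overlapped control. Zfp692 was lower at 8 h by -0.21 ± 0.07 (adjusted p 0.0187), a call that ended without control array 3 or 8 h array 4 (up to 0.0896).

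Zfp445, a KRAB protein that maintains imprints, was called lower at 1 d, by -0.43 ± 0.15 (adjusted p 0.0182). Its control arrays spread widely, from 9.06 to 9.94, and overlapped the 1 d arrays at 8.70 to 9.58. The call ended without control array 3, 1 d array 3 or 1 d array 5, and in a fit of the 2 groups alone (adjusted p up to 0.0937). Zfp592, found in a complex with Zfp687 and Zmynd8, fell at 1 d by -0.25 ± 0.07 (adjusted p 0.00252), with its other probe sets at -0.03 and -0.20, and Zfp687 was not called at any time. Zfp750, a factor of epidermal differentiation, fell at 1 d by -0.40 ± 0.10 (adjusted p 0.00074). It was also called lower at 2 h (-0.27 ± 0.10, adjusted p 0.0412) and at 8 h (-0.25 ± 0.10, adjusted p 0.0403), with arrays that overlapped control. Zfp451, a SUMO ligase, and Zfp462, Zfp521 and Zfp608 were not called at any time against control.

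The corepressors that KRAB proteins use were counted beside them. Of 12 of 13 listed corepressor genes tested, 5 fell and 0 rose at 2 h (41.7% lower, against 19.9% of all genes) and 3 fell and 3 rose at 8 h (25.0% each, against 24.2% and 17.7%). At 1 d 0 fell and 6 of the 12 rose, against 25.0% of all genes higher, and at 2 d 0 fell and 7 rose (58.3% higher, against 21.1%). Trim28 differed by 0.07 ± 0.09 at 2 h (adjusted p 0.578) and was higher at 1 d by 0.79 ± 0.09 (adjusted p 7.56e-10). Setdb1 was lower at 2 h by -0.24 ± 0.08 (adjusted p 0.018). Early response zinc finger factors outside the numbered range gave a scale for the 2 h changes. Of 11 of 12 tested, 9 rose and 0 fell at 2 h, against 6.41% higher and 19.9% lower over all genes. Egr1 was at 4.26 ± 0.44 (adjusted p 1.11e-09) and Zfp36, which destabilises mRNAs, at 2.17 ± 0.22 (adjusted p 9.97e-10). The list was drawn up of factors known for an early rise, so its count serves as a scale only. Zfp36 is also the highest of the Zfp1 to Zfp399 genes at 2 h, so the 2 sets share it. The 76 genes numbered Zfp1 to Zfp399 that passed the filter had 8 falls and 8 rises at 2 h (10.5% each, against 19.9% and 6.41% of all genes) and a median of 0.03, and 4 falls and 19 rises at 8 h (5.26% and 25.0%, against 24.2% and 17.7%).

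Many of these genes lie side by side in the genome. On GRCm38.p6, 64 of the 116 genes form 19 groups whose neighbouring starts are at most 500 kb apart, and chromosomes 7 and 17 carry 32 and 16 of the genes. Within 9 groups of 3 or more genes, neighbours moved alike in some and apart in others. On chromosome 7, Zfp790, Zfp420 and Zfp568 were all called higher at 2 h, at 0.38, 0.19 and 0.86, although the Zfp420 call (adjusted p 0.0302) ended with the mean of its probe sets, in a fit of the 2 groups alone and on leaving out control array 3 or 5 or 2 h array 3 or 4 (up to 0.404). By 2 d Zfp420 was lower while Zfp568 differed by 0.17. On chromosome 8, Zfp869 and Zfp963 were called higher at 2 h, at 0.88 and 0.37, beside Zfp866 at -0.15. On chromosome 9 the neighbours Zfp809 and Zfp810 were both called lower at 2 h, although the Zfp810 call ended on leaving out any control array, as given above.

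The chromosome 17 group of 9 genes held opposite changes at 8 h. Zfp946 was at -0.83 and Zfp945, the next of these genes, at 1.80, while Zfp760 was at -0.07 and the other 6 between -0.10 and 0.33 without a call. In a group of 9 on chromosome 7, Zfp771, Zfp768 and Zfp629 were called lower at 2 h and 8 h, at -0.44, -0.33 and -0.38 at 8 h, while Zfp553 was called higher at 8 h, at 0.21. Zfp771, like Zfp420, is read by a probe set that can share copies, and its calls ended with the mean of its probe sets and, at 2 h, with cyclic loess (adjusted p up to 0.62 at 2 h and 0.129 at 8 h), the Zfp768 call at 8 h ended under 13 of the settings tried (up to 0.126), and the Zfp553 call at 8 h under 8 (up to 0.569). On chromosome 6, Zfp777 and Zfp746 were higher at 8 h, at 0.41 and 0.27, beside Zfp467 at -0.59.

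**Figure D5:**
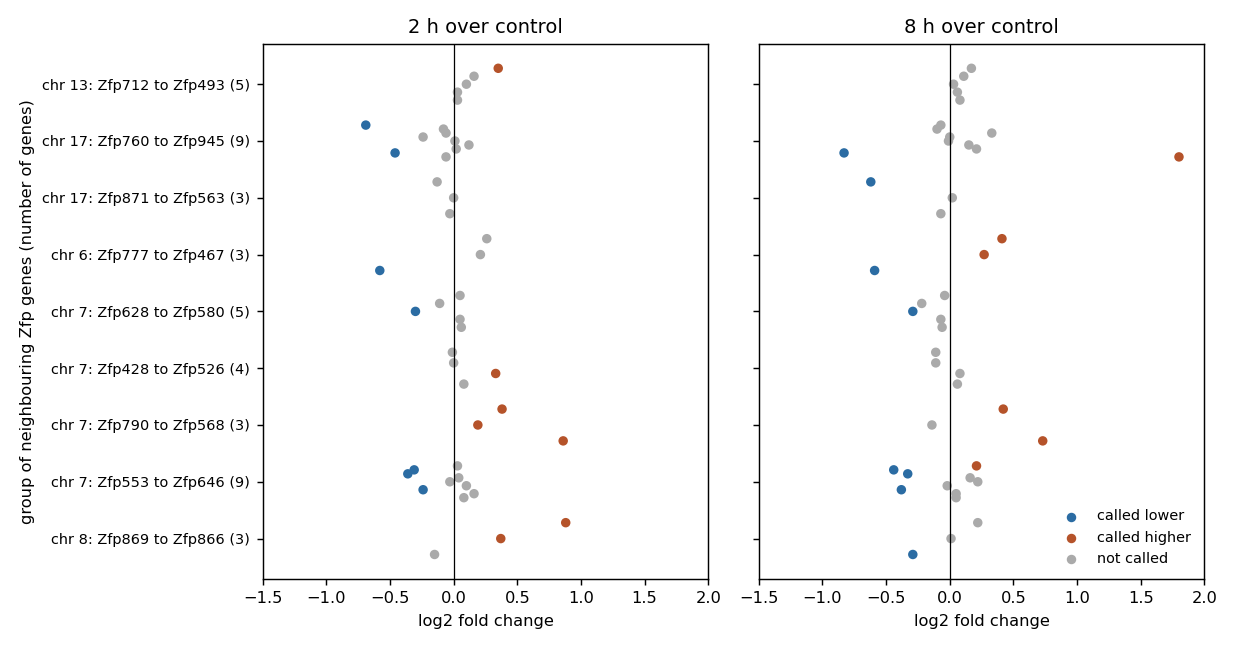
Log2 fold change over control at 2 h (left) and 8 h (right) of the Zfp genes in 9 groups of 3 or more neighbouring genes, named by chromosome and by the genes at their ends. The 3 genes from Zfp790 to Zfp568 are all called higher at 2 h, and the group from Zfp760 to Zfp945 holds values from -0.83 to 1.80 at 8 h.

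The mean of the 116 genes over all arrays ran from 5.26 to 10.0, with a median of 6.40, and 77 genes exceeded the median of all values on each of the 46 arrays. Of the 58 genes with the higher means 13 were called lower and 17 higher at 8 h, and of the 58 with the lower means 4 and 9. At 2 h the brighter genes had 10 lower and 7 higher calls and the dimmer ones 6 and 7, at 1 d 11 and 10 against 10 and 5, and at 2 d 6 and 4 against 10 and 1. The same split of all genes was not made, and these counts were not tested. The genes with the highest means were Zfp622, Zfp445 and Zfp871, and those with the lowest were Zfp697, Zfp654 and Zfp980. Zfp654 was called higher at 2 h by 0.50 ± 0.15 (adjusted p 0.0119, and 0.0554 without 2 h array 2). Of the 8 arrays that let Zfp654 pass, 4 were of that time, so its rise is given as a description. Of the 116 genes 51 had a single probe set, and 10 were read by probe sets that can share near-identical copies.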

How the data were processed

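Whole liver RNA was hybridised to Affymetrix mouse whole-genome arrays, per the labels. Each array's column as deposited by the authors holds log2 values. Per the submitters' processing notes, RMA in oligo 1.52.0 produced them. RMA corrects background, equalises the distributions of arrays and summarises probes, so shifts shared by most genes are removed. No unused column was left (0).

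Of 45101 probe sets 34945 name 1 gene, and 18194 genes were each read from their brightest one. All 46 arrays entered a limma fit of group means (limma 3.58.1, R 4.3.3, 37 residual degrees of freedom), with Benjamini-Hochberg adjustment within each comparison over 13239 genes. The steps 8 h minus 2 h, 1 d minus 8 h, 2 d minus 1 d and 4 d minus 2 d were tested in the same fit. For the Gapdh and actin measures a two-sided exact permutation test was used, whose smallest p with 5 arrays on each side is 0.00794. Alternatives were other scalings, filters, probe set rules, arrays in the fit, variance models, weights, a Gapdh covariate, a fold threshold, a replicate block and leaving out each array. A fit without arrays 1 and 2 at 1 d was chosen after seeing the data.

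Genes given with values had to be called with no array inside the control range. They are the 8 largest falls and 6 largest rises at 2 h, the 5 of each at 8 h, 1 d and 2 d and the 3 of each later, with the 3 highest and 3 lowest means and a panel of better studied members. Neighbours, calls at neighbouring times and small groups were named beyond this rule after their values were seen. The members and lists were chosen with earlier results of these data known. Replicate numbers did not pair arrays across groups, since same-numbered arrays had a median correlation of deviations of 0.00932 (-0.274 to 0.374) and others of -0.00402. Simulated data for 2 h against control with 13239 genes held 67 genes changed 1.5-fold, 67 changed 2-fold and 66 changed 4-fold. Of these 83.6%, 98.5% and 100% were recovered, and 3.59% of calls were false. In the real data 19.9% of genes were called lower and 6.41% higher, far more than were changed here. Changes below 1.5-fold were not simulated, so these rates may not hold for the real calls. Promoters are RefSeq on GRCm38.p6, and 16 genes had several, of which the first listed was used. Protein domains were not used here. Plots were drawn with Python 3.11.15, pandas 2.3.3 and matplotlib 3.10.9.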

Additional observations from a re-analysis of the deposited data

Results flagged for a closer look

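Among the genes that changed most, 3 of 74 groups of arrays held an array far from its group, where chance gives about 1 in 20. Zfp467 had 1 d array 2 at 6.31, the highest of that time. Zfp593 had control array 5 at 7.31, the highest control. Zfp664 had 1 d array 1 at 8.02.

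Calls in opposite directions at different times, tested as a difference within the fit, were found for 8 genes (adjusted p from limma between 5.4e-10 and 6.16e-06). The difference was 1.33 for Zfp612 (2 h minus 16 d), 0.88 for Zfp664 (1 d minus 2 h), 0.85 for Zfp931 (8 h minus 2 h), 0.66 for Zfp963 (2 h minus 2 d), 0.63 for Zfp771 (1 d minus 8 h), 0.59 for Zfp420 (2 h minus 2 d), 0.53 for Zfp710 (4 d minus 2 h) and 0.50 for Zfp512 (2 d minus 8 h). These pairs of times were chosen for their opposite calls, so small p-values were built in and add no support to the single calls. Over all genes tested, 11.3% had calls in both directions. Some single calls behind them are fragile. The Zfp771 rise at 1 d (0.19) was at an adjusted p of 0.151 without arrays 1 and 2, and the Zfp710 fall at 2 h (-0.25) ended with cyclic loess and with the mean of its probe sets (up to 0.837).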

How the results depend on the processing

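No called difference from control changed sign under any alternative, and 18 of 30 calls at 2 h, 24 of 43 at 8 h, 17 of 36 at 1 d and 9 of 21 at 2 d held under each of them, while among the steps Zfp961 from 1 d to 2 d changed sign (-0.24, and up to 0.09). A floor of 1.5-fold left 3 falls and 4 rises at 2 h, 6 and 7 at 8 h, 2 and 4 at 1 d, 0 and 0 at 2 d and 0 at 4 d, and 7, 6, 5 and 0 calls at the 4 steps in order. Without probe sets that can share copies 9 rises were left at 2 h, against 14 with them. The share of all genes called higher without such probe sets is not given. Array weights gave 32 falls at 1 d, 8 rises at 2 d, 9 calls at 4 d and 7 at 16 d. Rises at 2 d were 3 with quantile normalization, the mean of all probe sets or the Gapdh covariate. Calls at 4 d were 3 with quantile normalization, 2 with arrays shifted to the same median, cyclic loess, the mean of all probe sets or the Gapdh covariate, and 8 in a fit of the 2 groups alone, which at 16 d gave 3 calls and at the steps from 8 h to 1 d and from 1 d to 2 d 19 and 11, and the Gapdh covariate gave 2 at 16 d. The cause of these shifts was not tested. With the replicate block there were 16 falls and 14 rises at 2 h, 17 and 26 at 8 h, 22 and 14 at 1 d and 16 and 5 at 2 d, and 14 of 46 arrays correlated best with their own number.

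Leaving out 1 array gave 13 to 16 falls and 12 to 16 rises at 2 h, 13 to 17 and 22 to 24 at 8 h, 18 to 23 and 10 to 21 at 1 d, and 13 to 17 and 3 to 6 at 2 d. It gave 1 to 2 calls at 4 d, 0 to 0 at 6 d and 8 d and 1 to 3 at 16 d, 18 to 29, 24 to 32, 18 to 31 and 9 to 15 at the steps, and a 2 h median of 0.02 to 0.04. Rises at 2 d were 3 without control array 3 or 2 d array 5, calls at 4 d were 2 without control array 1 or 4, calls at 16 d were 2 without control array 1 or 2 and 3 without 16 d array 1, and calls from 2 d to 4 d were 9 without 2 d array 3 or 4 d array 4. The split of falls and rises moved with scaling at 2 h to 16 and 18 (quantile) and 14 and 17 (loess), and at 2 d to 24 and 3 (quantile). Genes near the median of all values limit what these arrays can show, and the 75 genes that did not pass were not tested.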
